A study of Mus musculus with 6 samples.

Results

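The AP-1, EGR and immediate-early genes described here are 10 mouse genes taken by name: the FOS family members Fos, Fosb and Fosl2, the JUN family members Jun, Junb and Jund, the zinc finger gene Egr1, the immediate early response genes Ier2 and Ier3, and Btg2. Each matched 1 of the 37620 gene rows by its Ensembl identifier. Of the 10, 9 had a mean normalized count of at least 10 and were tested with 14391 genes in all, and Fosb was not.

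Immediate-early genes are transcribed within minutes of a signal, from factors already present in the cell, and their mRNAs are short-lived. FOS and JUN proteins pair through leucine zippers to form AP-1, a transcription factor that binds DNA more tightly than pairs of JUN alone, while EGR1 binds GC-rich elements through zinc fingers. In the myeloid lineage, AP-1 and EGR1 are known for their part in monocyte and macrophage differentiation, and Btg2 for restraining the growth of cells.

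The cells were granulocyte-macrophage progenitors (GMPs), the marrow precursors of granulocytes and monocytes, sorted from C57BL/6 mice as Lineage-negative, c-Kit-positive, Sca1-negative and CD34-positive cells stained for an Fc receptor. The 6 libraries formed 2 groups of 3: control mice with both Bap1 alleles floxed and no Cre (Bap1 f/f), and littermates that also carried Mx1-Cre (MX1+ Cre Bap1 f/f), called Bap1 knockout. Per the labels, mice of both groups were 65 days old and received polyI:polyC (pIpC) at 42 days, which switches on the interferon-responsive Mx1 promoter; the design text of the series gives a younger age for the injection. Since Cre was carried by the knockout group alone, an effect of Cre and an effect of Bap1 loss cannot be told apart, and Mx1-Cre acts in interferon-responsive cells beyond the GMPs. The labels do not tie each library to a separate mouse, so p-values measure the spread between these libraries.

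The libraries held 19.5 to 25.9 M reads in genes, and reads in 17090 to 17509 genes. Values are normalized counts, which are gene reads that the authors divided by 1 size factor per library. Bap1 itself, a nuclear deubiquitinase gene, averaged 1139 ± 181 normalized counts in the controls against 2983 ± 319.1 in the other group (SD, n = 3; a log2 difference of 1.39, SE 0.14, limma adjusted p = 6.07e-05), so its whole-gene count went against the labels and does not check the deletion. Every direction below is therefore that of the libraries labelled knockout. All 10 GMP markers were read in all 6 libraries, and 4 of them were higher in the knockout-labelled group (Elane, Ctsg, Ms4a3 and Kit) and 2 lower, both genes of the sort gate: Cd34 went from 11500 ± 296.5 to 3963 ± 243.6 normalized counts (limma adjusted p = 5.04e-06) and the Fc receptor gene Fcgr3 from 13250 ± 728.1 to 7836 ± 1485 (0.00198). In contrast, all 10 monocyte markers were lower in the knockout-labelled group, with a summed level of 34000 to 35240 in control and 5687 to 10110 in knockout-labelled libraries. Of all genes tested, 11.8% were called higher and 15.0% lower in limma. In bulk RNA, fewer cells of a type and less RNA per cell cannot be told apart.

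Of the 9 tested genes, 1 was higher (Ier3) and 2 were lower (Btg2 and Jun) in the libraries labelled knockout, at a Benjamini-Hochberg adjusted p of 0.05 in limma. Over all genes tested, 26.8% were called, 11.8% as higher and 15.0% as lower, so the called members, 3 of 9, were read against that share. On the recovered reads edgeR called 26.0% of genes (11.7% higher and 14.4% lower) and 2 members, and DESeq2 24.8% (11.2% and 13.5%) and 2 members, in both cases Ier3 and Btg2. The members' median log2 fold change was 0.38, beside 0.01 over all genes tested, and 5 of the 9 had a fold change above 0. Egr1, among these 5 at 1.17, reached the mean needed for testing only through the knockout-labelled group (6.042 in controls against 21.45). Without Egr1 the middle of the list falls between Junb (-0.31) and Ier2 (0.38). The median of 0.38 is therefore not read as a rise of the members.

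**Figure D1:**
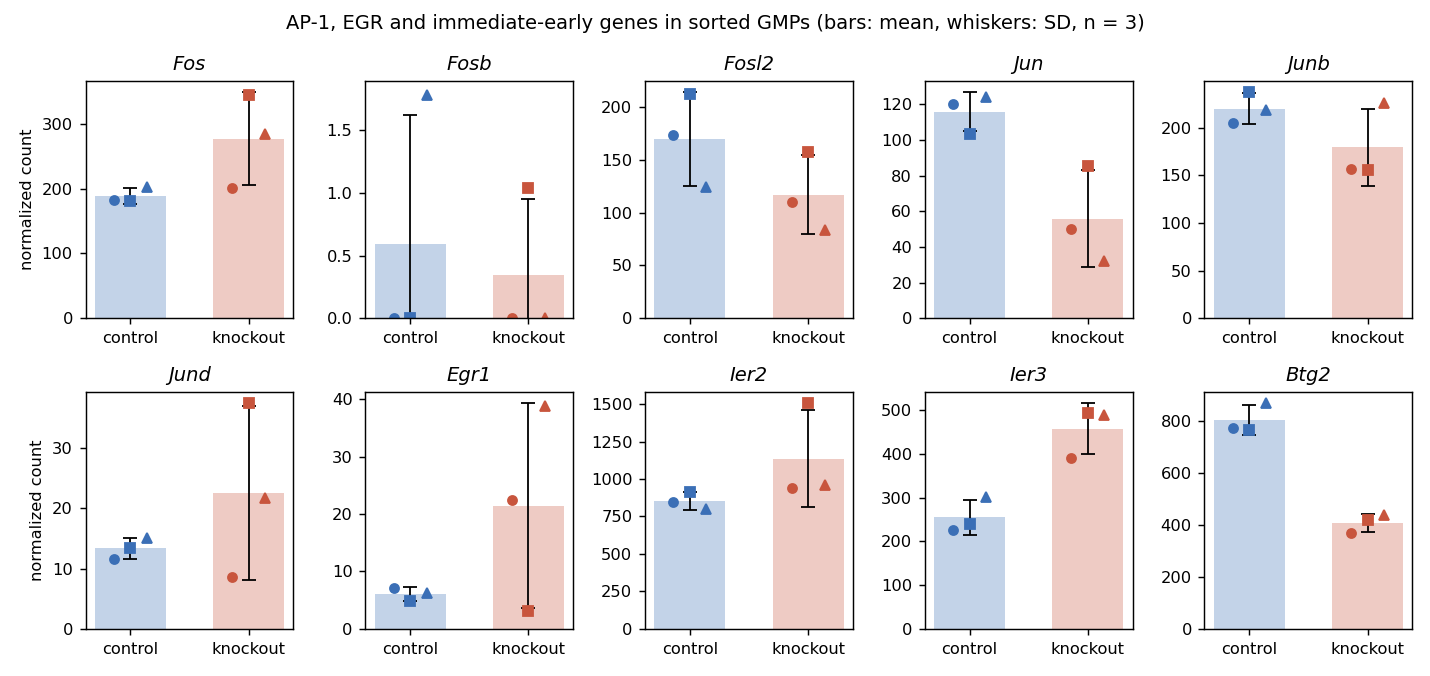
Normalized counts (y axes, linear, each with its own scale from 0) of the 10 genes in control and knockout-labelled libraries (x axes). Bars are means, whiskers are SDs of 3 libraries (cut off at 0 for Fosb), and circles, squares and triangles are replicates 1, 2 and 3. Btg2 and Ier3 separate the groups with little spread, and Egr1 and Jund differ mainly among the knockout-labelled libraries.

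Btg2, an antiproliferative gene that binds the CCR4-NOT deadenylase and is induced by p53 as well as by growth signals, fell. Controls 1, 2 and 3 held 772.1, 762.5 and 867.3 normalized counts of it, against 369.1, 416.5 and 436.2 in knockout-labelled replicates 1, 2 and 3. Every knockout-labelled value lay below every control value, and the libraries within each group were close together. The means were 800.6 ± 57.93 and 407.3 ± 34.5 (SD, n = 3), which is 1.965-fold lower (log2 fold change -0.97 ± 0.15 SE, adjusted p = 0.000892 in limma). The call held in all 17 alternatives, with adjusted p values from 4.73e-07 to 0.00838.

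Ier3, a stress-inducible gene also called IEX-1 that modulates ERK signalling and apoptosis, rose. It stood at 225.7, 238.9 and 301.3 normalized counts in controls against 390.4, 494.5 and 488.7 in the knockout-labelled group. The groups did not overlap, and the 2 highest values, in knockout replicates 2 and 3, were nearly equal. The means of 255.3 ± 40.38 and 457.9 ± 58.51 (SD, n = 3) were 1.795-fold apart (log2 fold change 0.84 ± 0.19 SE, adjusted p = 0.00807 in limma). This call also held in all 17 alternatives (adjusted p from 0.0011 to 0.0363).

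Jun, which encodes c-JUN, the founding DNA-binding partner of AP-1, fell in limma but did so with a weaker margin. It was at 119.9, 103.2 and 123.9 normalized counts in controls against 50.14, 85.37 and 31.97 in the knockout-labelled group. All 3 knockout-labelled values were below the controls, but they differed from each other by more than the controls did. The means were 115.7 ± 10.99 and 55.83 ± 27.15 (SD, n = 3), 2.211-fold lower (log2 fold change -1.14 ± 0.37 SE, adjusted p = 0.0401 in limma). The call was lost in 9 of 17 alternatives: in edgeR (adjusted p = 0.0609) and DESeq2 (0.0502) on the recovered reads, after quantile normalization (0.0716), without a filter beyond 1 read (0.0673), and without control replicate 1 (0.103), 2 (0.0835) or 3 (0.119) or knockout replicate 1 (0.0743) or 3 (0.103). Its fold change stayed between -1.5 and -0.81 throughout. Exons of Jun overlap the antisense gene Junos, at 36.2 ± 8.465 and 22.18 ± 18.82 normalized counts, and since strand use in counting is not given, their reads may not be fully separated.

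The other two JUN genes did not pass. Junb, an AP-1 subunit known as a brake on myeloid proliferation, was at 204.4, 237.0 and 218.4 normalized counts in controls against 156.8, 155.1 and 226.1 in the knockout-labelled group. Knockout replicates 1 and 2 lay below all controls and knockout replicate 3 lay among them (log2 fold change -0.31, SE 0.23, limma adjusted p = 0.343). Once each library was adjusted for GC content and gene length it passed as lower (-0.68, adjusted p = 0.0399). Exons of Junb overlap those of Prdx2, a peroxiredoxin gene on the opposite strand at 4053 ± 121.5 and 2004 ± 175.8 normalized counts (adjusted p = 0.000102), so the count of Junb is uncertain, and the part of Prdx2 reads in it was not tested. Jund, the JUN family member usually expressed without stimulation, was read at a low level of 11.55, 13.38 and 15.15 in controls against 8.534, 37.48 and 21.7 in the knockout-labelled group. The knockout-labelled values lay on both sides of the controls (log2 fold change 0.50, SE 0.62, limma adjusted p = 0.587), and the sign turned to -0.09 after the GC and length correction. Jund had the highest GC content of the 10 genes, 67.15%, and rested on 8 to 36 reads per library. Its exons overlap the opposite-strand gene Gm11175, at 0.6156 ± 0.5341 normalized counts in controls and 6.119 ± 0.3627 in the knockout-labelled group. The part of Gm11175 reads in the Jund count was not tested.

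Among the FOS genes none passed. Fos, which encodes c-FOS, was at 183, 180.6 and 202.3 normalized counts in controls against 201.6, 344.6 and 284.3 in the knockout-labelled group. Knockout replicates 2 and 3 were above all controls, and knockout replicate 1 was just under the highest control. The means were 188.7 ± 11.91 and 276.9 ± 71.8 (SD, n = 3; a log2 difference of 0.52, SE 0.23, limma adjusted p = 0.125). Fos passed as higher without knockout replicate 1 (0.73, adjusted p = 0.03) and after the GC and length correction (0.63, adjusted p = 0.0438), within a range of 0.03 to 0.337 over all 17 alternatives.

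Fosl2, the FRA-2 gene, was at 173.3, 212.1 and 123.9 in controls against 109.9, 157.2 and 83.36 in the knockout-labelled group, so that the groups overlapped and the control libraries themselves spread widely (log2 fold change -0.55, SE 0.31, limma adjusted p = 0.209). Fosb was next to unread, with 2 reads in control replicate 3, 1 read in knockout replicate 2 and 0 reads in the other 4 libraries. Both groups thus lay under the limit of 3 reads per library that a count of 0 allows, and no fold change is given.

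Egr1, the early growth response zinc finger factor, varied most among the knockout-labelled libraries. It was at 7.108, 4.777 and 6.239 normalized counts in controls against 22.4, 3.123 and 38.83 in the knockout-labelled group. Knockout replicate 3 was the highest and knockout replicate 2 the lowest of all 6 libraries, on 34 and 3 reads. The log2 fold change of 1.17 (SE 0.86) did not pass (limma adjusted p = 0.344). Egr1 reached the mean of 10 that testing required only through the knockout-labelled group. Its adjusted p was 0.0471 without knockout replicate 2 (log2 fold change 2.13), up to 0.556 in the other alternatives that tested it, and it fell under that mean, untested, without knockout replicate 3.

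Ier2, a nuclear protein gene and the most abundant of the 10 per length, was at 845.9, 913.4 and 797.8 in controls against 938.7, 1507 and 958.1 in the knockout-labelled group. All knockout-labelled values were above the controls, with replicates 1 and 3 only slightly so (log2 fold change 0.38, SE 0.18, limma adjusted p = 0.151). In all, 4 of the 9 tested genes had groups that did not overlap (Ier2 and Ier3 higher, Jun and Btg2 lower), beside 42.9% of all genes tested (20.4% higher and 22.5% lower).

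**Figure D2:**
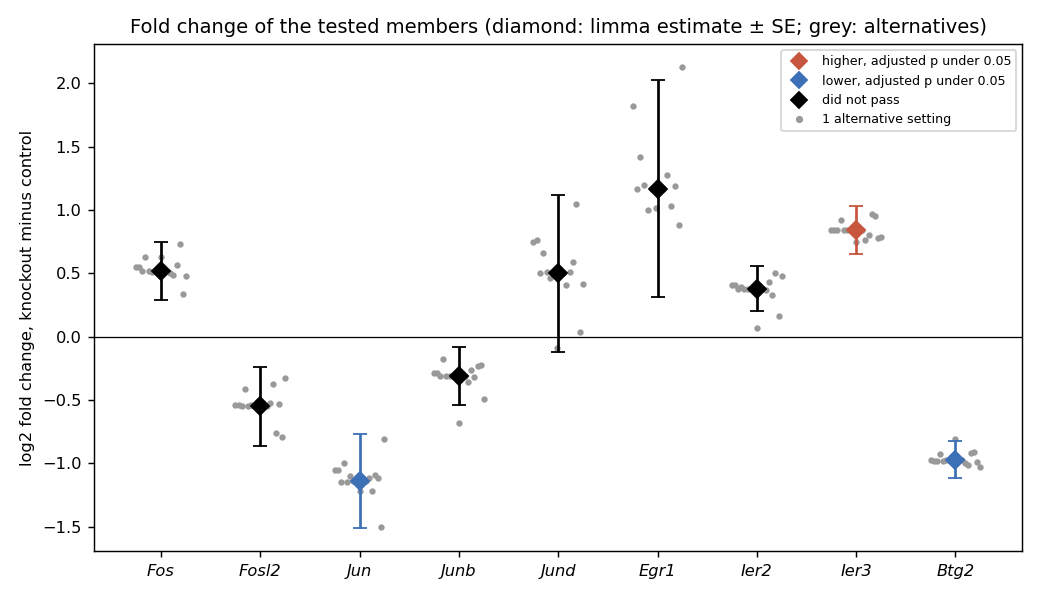
Log2 fold change of the 9 tested genes, knockout-labelled minus control (y axis), for each gene (x axis). Diamonds with whiskers are the limma estimate ± SE on all 6 libraries, coloured where the adjusted p was under 0.05, and grey dots are the alternative settings. Ier3 stayed between 0.75 and 0.97 and Btg2 between -1.03 and -0.81, while Egr1 ranged from 0.88 to 2.13 and Jund from -0.09 to 1.05.

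The spread itself differed between the groups for these genes. The SD of log2(value + 1) had a median of 0.14 over the 9 tested genes in control libraries and 0.39 in knockout-labelled libraries, beside 0.18 and 0.28 over all genes tested. Egr1 (1.71), Jund (1.02) and Jun (0.70) had the widest SDs in the knockout-labelled group, while Btg2 (0.12) and Ier3 (0.19) stayed narrow. No single library was highest throughout: knockout replicate 2 held the highest value of Fos, Jund, Ier2 and Ier3 but the lowest of Egr1 and Junb, and knockout replicate 3 held the highest Egr1 but the lowest Jun and Fosl2. Over all genes tested, these 2 libraries were the highest of the 6 for 18.2% and 20.5% of genes and the lowest for 15.8% and 22.0%. By Xist and Y-linked reads, each group held 1 female and 2 male libraries, and with sex as an added term the same 3 members passed.

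Levels of different genes were compared as RPKM, gene reads scaled to exon length and to the library's total gene reads. In control libraries the order was Ier2 (24.3 ± 1.64), Btg2 (12.7 ± 0.924), Ier3 (9.8 ± 1.55), Junb (4.15 ± 0.305), Fos (3.48 ± 0.222), Jun (1.58 ± 0.151), Fosl2 (0.761 ± 0.198), Jund (0.348 ± 0.0469), Egr1 (0.0585 ± 0.0115) and Fosb (SD, n = 3). The ranges of neighbours in this order did not overlap across the control libraries, although Btg2 at its lowest (12.1) and Ier3 at its highest (11.6) were close. In the knockout-labelled libraries Ier3 (17 ± 2.64) stood above Btg2 (6.25 ± 0.826), with no overlap. Fos (4.94 ± 1.24) and Junb (3.3 ± 0.968) overlapped there, as did Jun (0.722 ± 0.315), Jund (0.564 ± 0.343) and Fosl2 (0.501 ± 0.133), and Egr1 at its highest (0.39) reached the lowest Fosl2 value (0.387).

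**Figure D3:**
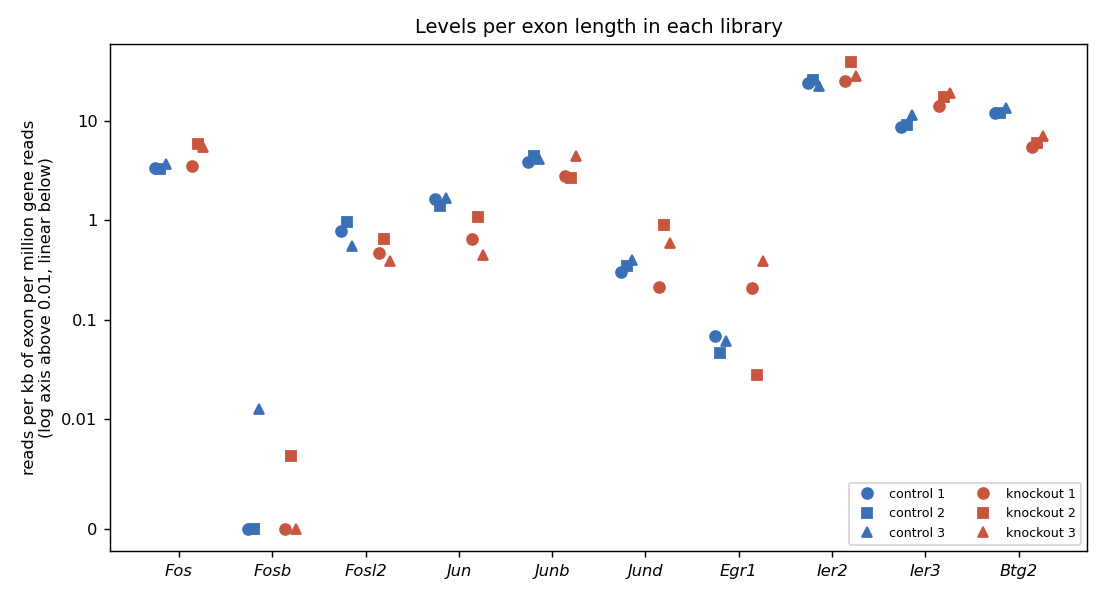
RPKM, gene reads scaled to exon length and library total (y axis, logarithmic above 0.01 and linear below) of each gene (x axis) in each library. Blue marks are control and red marks knockout-labelled libraries, and circles, squares and triangles are replicates 1, 2 and 3. The 3 highest genes are Ier2, Btg2 and Ier3, and Btg2 and Ier3 change places between the groups.

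Within each family the same per-length levels gave the make-up of the FOS and JUN pools. Fos took 81.3%, 77.8% and 86.8% of the FOS family total in control and 88.3%, 89.9% and 93.4% in knockout-labelled libraries, with nearly all the rest from Fosl2. Junb took 66.7%, 71.9% and 66.4% of the JUN family total in control and 76.5%, 57.8% and 81.0% in knockout-labelled libraries. Jun took 22.5 to 28.1% of it in control and 17.7%, 23.0% and 8.27% in knockout-labelled libraries. Jund took its highest share, 19.2%, in knockout replicate 2. The JUN shares rest on Junb, Jun and Jund counts that may hold reads of overlapping genes, and on few Jund reads, so they are uncertain.

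Because Fos and Jun lay on opposite sides of 0, as did Ier3 and Btg2, their ratio within each library was also taken; both pairs were chosen after their values were seen. The ratio of Fos to Jun normalized counts was 1.53, 1.75 and 1.63 in controls against 4.02, 4.04 and 8.89 in the knockout-labelled group. The ratio of Ier3 to Btg2 was 0.292, 0.313 and 0.347 in controls against 1.06, 1.19 and 1.12 in the knockout-labelled group. Neither ratio overlapped between the groups, and a ratio within a library does not depend on its size factor. The log2 ratios differed by 1.68 and 1.82, given as a description. No test of them is read, because of how the pairs were chosen. An exact permutation test of 3 against 3 libraries also could not give a p under 0.1. A ratio shows that the genes of a pair differed unequally, not which of them did.

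**Figure D4:**
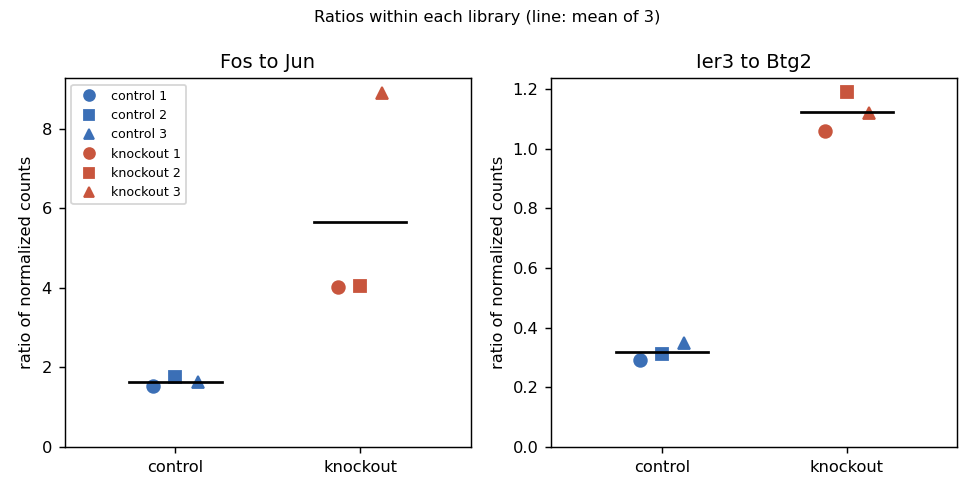
Ratio of normalized counts (y axes, linear from 0) of Fos to Jun and of Ier3 to Btg2 in control and knockout-labelled libraries (x axes). Marks are libraries and lines are means of 3. The knockout-labelled ratios lie above all control ratios in both panels, at 4.02 or more against 1.75 or less for Fos to Jun.

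Gene structure was not used in the choice by name. All 9 tested genes had fewer exons in their longest transcript (median 2) than the median of 6 over all genes tested with a model. The median exon length was 2352 bases against 3804.5 bases, but Fosl2 (9680 bases) and Egr1 (4484 bases) lay above that value, as did the untested Fosb (6243 bases). Of the 10, 4 (Jun, Junb, Jund and Ier2) had a single exon in their longest transcript, beside 16.3% of all genes tested. All 9 tested genes had a GC content above the median of 49.37% over all genes, from 49.73% (Btg2) to 67.15% (Jund). After a correction of each library for GC content and length, Btg2, Ier3 and Jun kept their calls (adjusted p = 0.0012, 0.0084 and 0.0268), Fos passed as higher, Junb passed as lower, and Ier2 went from 0.38 to 0.07. Over all genes the same correction turned the split from 1695 higher and 2163 lower to 2615 and 1894.

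The promoters of the 3 called genes are shown, to set the gene that rose beside those that fell, together with that of Fos, a much-studied immediate-early promoter. Each is the 250 bases before the gene's start, 5′ to 3′ on the gene's strand, from RefSeq on GRCm38.p6: Btg2 from chr1:134079156-134079405 (minus strand), Jun from chr4:95052223-95052472 (minus strand), Fos from chr12:85473640-85473889 (plus strand) and Ier3 from chr17:35821463-35821712 (plus strand). Capitals mark matches on either strand to the CArG box bound by SRF, the AP-1 site TGANTCA, the CREB element TGACGTCA and its core TGACG, the EGR site GCGNGGGCG, TATAAA and the GC box GGGCGG; an EGR match can run into a GC box, and TGACG is part of TGACGTCA.
Btg2: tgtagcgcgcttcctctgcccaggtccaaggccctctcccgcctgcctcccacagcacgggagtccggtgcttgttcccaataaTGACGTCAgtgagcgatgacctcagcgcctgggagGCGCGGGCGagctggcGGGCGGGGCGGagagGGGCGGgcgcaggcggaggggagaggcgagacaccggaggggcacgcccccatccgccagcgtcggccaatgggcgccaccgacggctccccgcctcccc
Jun: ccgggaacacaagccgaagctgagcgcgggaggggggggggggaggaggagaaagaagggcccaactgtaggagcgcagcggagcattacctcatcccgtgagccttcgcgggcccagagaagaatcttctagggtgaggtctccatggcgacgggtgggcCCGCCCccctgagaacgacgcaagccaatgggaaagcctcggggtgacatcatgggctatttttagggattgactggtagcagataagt
Fos: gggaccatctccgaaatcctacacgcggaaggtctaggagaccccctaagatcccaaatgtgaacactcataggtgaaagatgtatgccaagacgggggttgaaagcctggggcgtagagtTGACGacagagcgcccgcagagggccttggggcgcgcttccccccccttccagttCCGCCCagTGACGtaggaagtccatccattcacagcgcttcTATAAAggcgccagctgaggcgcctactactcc
Ier3: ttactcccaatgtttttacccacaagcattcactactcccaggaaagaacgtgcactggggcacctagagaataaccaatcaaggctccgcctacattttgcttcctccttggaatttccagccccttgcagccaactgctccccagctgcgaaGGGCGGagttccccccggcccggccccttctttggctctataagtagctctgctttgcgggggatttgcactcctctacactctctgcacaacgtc

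Btg2 held the whole element TGACGTCA at -166 to -159, found in 1.62% of 27025 promoters of the same length, and an EGR site at -131 to -123, found in 4.65%. Fos held TGACG at -129 to -125 and at -66 to -62, a core found in 17.9% of promoters, and TATAAA at -33 to -28, found in 13%. In the windows of Jun and Ier3 the only match was 1 GC box each, a motif found in 32.9% of promoters. Of the 8 genes searched (all but Egr1 and Ier2), 0 held a CArG box (1.4% of promoters) or TGANTCA (6.87%) in this window. These are matches of letters in 250 bases and not measured binding, and elements farther from the start were not searched. Variants of these patterns, such as the letters tgacatca in the Jun window, were not searched either.

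Of 18 listed relatives in the AP-1 and EGR families, 17 had a row and 9 were tested. Of these, 1 was higher and 1 lower (median log2 fold change 0.31), beside 26.8% of all genes called. Batf, an AP-1 partner of JUN proteins in lymphocytes and dendritic cells, was lower, going from 439 ± 74.08 to 157.2 ± 18.43 normalized counts (SD, n = 3; a log2 difference of -1.47, SE 0.21, limma adjusted p = 0.000481), with 363.7 to 511.8 in control and 142.9 to 178 in knockout-labelled libraries. Maff, a small MAF protein gene, rose from 1.801 ± 0.8552 to 22.76 ± 10.56 (a log2 difference of 3.01 ± 0.77 SE, adjusted p = 0.0145), on 1 to 3 control reads. Maff reached the mean of 10 only through the knockout-labelled group, and it fell under it, untested, without knockout replicate 2 or 3. Jdp2, a JUN dimerization partner and repressor, was at 10.64 ± 4.052 and 23.72 ± 20.04 (adjusted p = 0.38).

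Several other relatives were too low to test. Atf3, a stress-induced partner of JUN, was at 12.16 ± 7.587 and 2.429 ± 4.208 normalized counts, and Batf3, a factor of classical dendritic cells, at 14.51 ± 11.03 and 1.778 ± 3.079. Fosl1, the FRA-1 gene, was at 4.509 ± 5.518 and 10.35 ± 8.887. Egr2 was read in 2 libraries only, at 6.239 in control replicate 3 and 22.84 in knockout replicate 3, and Egr3 and Egr4 had 0 reads in all 6 libraries. For Atf3, Batf3, Fosl1 and Egr2 the values of the groups overlapped. They did not for Maf, another untested relative, named after its values were seen. Maf was at 14.47 ± 5.957 in controls and had 0 reads in every knockout-labelled library. That is at least 4.45-fold lower against a floor of 3 reads per library.

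Among 38 other immediate-early genes 29 were tested, of which 6 rose, 5 fell and 18 did not pass (median log2 fold change 0.14). Beside these counts, 11.8% of all genes tested were higher and 15.0% lower. The highest-ranking rise was that of Csrnp1, an AXIN1-induced nuclear factor, from 109.3, 74.53 and 88.24 to 166.4, 274.9 and 367.7 normalized counts (log2 fold change 1.51, SE 0.31, limma adjusted p = 0.00433). Dusp1, the phosphatase that switches off p38 and JNK, rose from 120.8, 114.7 and 134.6 to 407.5, 214.5 and 286.6 (1.24, SE 0.26, adjusted p = 0.0048). The groups did not overlap for either gene. Pim1, a kinase gene, rose from 38.48 ± 5.928 to 112 ± 55.29 (1.42, adjusted p = 0.0176), but missed the threshold when control replicate 2 (0.0561), control replicate 3 (0.056) or knockout replicate 3 (0.0648) was left out.

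Klf4, a Krüppel-like factor of monocytes that is also one of the 10 monocyte markers, fell from 171.5, 316.3 and 157.8 to 33.07, 82.25 and 11.42 normalized counts (log2 fold change -2.65, SE 0.57, limma adjusted p = 0.00578). Gadd45b, a stress-response gene, fell from 860.6 ± 23.99 to 455 ± 179.5 (-0.99, adjusted p = 0.00841). Dusp6, the phosphatase specific for ERK, fell from 476.4 ± 130.8 to 242.3 ± 47.34 (-0.96, adjusted p = 0.0104), and did not pass once control replicate 3 was left out (0.0598). Klf6 was lower at 688.9 ± 35.73 and 415.9 ± 148.7 (-0.79, adjusted p = 0.0242), but it did not pass after the GC and length correction (0.149), nor without control replicate 1 (0.0704), 2 (0.0758) or 3 (0.0573) or knockout replicate 1 (0.0568) or 3 (0.0658). The monocyte markers moved the same way as these 4 genes, with 10 of 10 lower and 0 of 10 unread, and their part in the falls was not tested.

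The other 4 called genes, named after their values were seen, were Per1 (1.48, adjusted p = 0.0304), Plk2 (3.23, 0.0432) and Nfkbia (0.49, 0.0451) as higher and Klf10 (-0.48, 0.0351) as lower. Each lost its call in 5 to 7 alternatives, with adjusted p values of up to 0.109, 0.154, 0.193 and 0.15 in that order, and the Plk2 groups overlapped. Plk2 also reached the mean of 10 only through the knockout-labelled group, with 0 reads in 2 of 3 controls. Several well-known immediate-early genes did not pass. Nr4a1, the orphan nuclear receptor NUR77, was at 6.294 ± 3.095 and 15.78 ± 10.68 (adjusted p = 0.313), and Klf2 at 6.633 ± 2.735 and 13.57 ± 9.49 (0.482). Like Plk2, Nr4a1 and Klf2 reached the mean of 10 only through the knockout-labelled group, and each counts in the list's median. Zfp36, whose product degrades AU-rich mRNAs, was at 454.8 ± 24 and 523.5 ± 81.74 (0.433) and its relative Zfp36l1 at 61.5 ± 30.09 and 53.73 ± 11.84 (0.88). Ier5, a relative of Ier2, was at 33.68 ± 8.848 and 23.34 ± 6.196 (0.441), and Btg1, the closest relative of Btg2 in this list, at 479.2 ± 87.51 and 396.8 ± 102.4 (0.378). Myc was at 3262 ± 637.5 and 3690 ± 1084 (0.591), and Ccn1, Ccn2 and Ptgs2, induced in stromal and inflammatory cells, had 0 reads in all 6 libraries.

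SRF, ETS and CREB factors drive immediate-early promoters. Of 12 such genes 2 rose and 0 fell (median log2 fold change 0.15), beside 11.8% and 15.0% of all genes. Elk4, a ternary complex partner of SRF, rose from 262.1, 254.2 and 312 to 579.2, 465.4 and 390.5 normalized counts (0.78, SE 0.20, limma adjusted p = 0.0134), and Atf1, a CREB relative, from 1086 ± 94.21 to 1654 ± 249.8 (0.60, adjusted p = 0.0107). Both calls were lost without control replicate 2 (0.0571 and 0.0588). Srf was at 114.9 ± 10.86 and 124.1 ± 21.77 (0.809), Elk1 at 94.71 ± 26.69 and 107.1 ± 17.25 (0.664) and Creb1 at 1203 ± 61.09 and 1122 ± 98.44 (0.598). Elk3, a partner of SRF that can repress, was at 239.1 ± 49.55 and 130.7 ± 78.99 (-1.03, adjusted p = 0.073); it passed with the replicate number as a block (0.0431), with a sex term (0.0374) and without knockout replicate 3 (0.00969).

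In the MAP kinase cascade, which relays growth signals to these factors, 22 of 22 genes were tested, 1 rose and 2 fell (median 0.05). The shares over all genes tested were 11.8% higher and 15.0% lower. Rps6ka3, the RSK2 kinase gene that acts below ERK, rose from 475.3, 483.5 and 436.8 to 1518, 983.9 and 1241 normalized counts (log2 fold change 1.40, SE 0.17, limma adjusted p = 0.000185). Map2k1, which encodes the ERK kinase MEK1, fell from 1852 ± 173.3 to 1175 ± 183.3 (-0.66, adjusted p = 0.00632), and Map2k6, a p38 kinase gene, from 256.5 ± 17.84 to 77.96 ± 45.28 (-1.85, adjusted p = 0.00266). The groups did not overlap for any of these 3 genes. Mapk3 (ERK1) was at 1131 ± 26.51 and 1155 ± 431.9 (0.927).

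Of 13 listed EGR and AP-1 partners and inhibitors, 11 were tested, 0 rose and 1 fell, beside 11.8% and 15.0% of all genes. Itch, a ubiquitin ligase for JUN proteins, fell from 1089 ± 29.36 to 776.9 ± 160.5 (log2 fold change -0.51, limma adjusted p = 0.0359), but the call was lost after the GC and length correction (0.321) and without control replicate 1 (0.0899), 2 (0.0943) or 3 (0.117) or knockout replicate 2 (0.108) or 3 (0.0876). The EGR corepressor genes Nab1 and Nab2 were at 447.2 ± 19.85 and 393.8 ± 20.56 (0.428) and at 16.54 ± 7.271 and 24.13 ± 22.15 (0.95). Tob1, an antiproliferative relative of Btg2, was at 102.7 ± 26.93 and 103.1 ± 45.63 (0.926).

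Heat-shock genes, which like immediate-early genes respond to the handling of cells, were described beside them. Of 10 listed, 8 were tested, 0 rose and 6 fell, with a median log2 fold change of -0.71 beside 0.01 over all genes tested. Hspa1a, the inducible HSP70 gene, was at 96.85, 741.5 and 197 normalized counts in control libraries and had 0 reads in every knockout-labelled library, at least 106-fold lower against a floor of 3 reads per library, or at least 45.2-fold without control replicate 2. Hspa1b, its near-identical copy, was at 16.72 ± 12.13 and 0 reads, and since reads that align to more than 1 place were set apart in a row of their own, both counts are uncertain. Hsph1, an HSP110 co-chaperone, fell from 1539, 2670 and 2348 to 431, 326.9 and 315.2 (-2.58, SE 0.21, limma adjusted p = 1.08e-05). Hsp90aa1 (-0.80, adjusted p = 0.00105), Dnaja1 (-0.80, 0.0028), Hspd1 (-0.62, 0.00251) and Hspa8 (-0.59, 0.00917) fell by less, and the call of Hspa8 was lost without control replicate 2 (0.0644). The heat-shock list had 0 higher and 6 lower of 8, and the members 1 higher and 2 lower of 9. The share over all genes tested was 11.8% higher and 15.0% lower, and the difference between the lists was not tested. Hspa1a, 1 of the 6 that fell, reached the mean of 10 only through the controls.

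**Figure D5:**
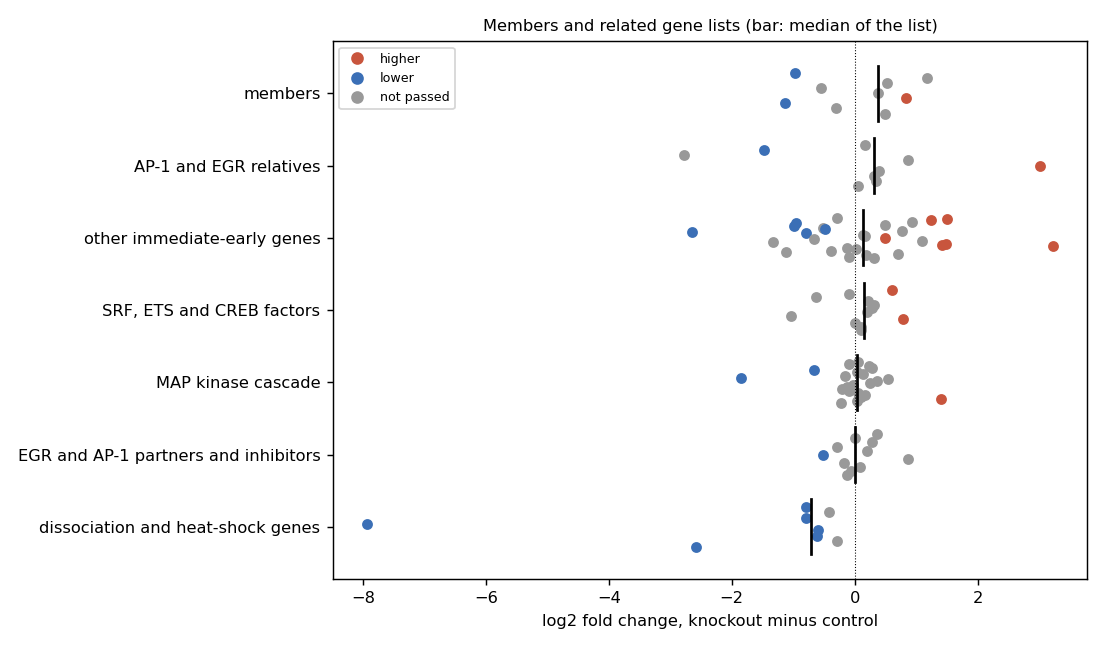
Log2 fold change, knockout-labelled minus control (x axis), of the tested genes of each list (y axis). Each dot is a gene, red if higher and blue if lower at an adjusted p under 0.05 and grey if it did not pass, and black bars are list medians. The list medians run from 0.01 to 0.38 for the members and the related regulators, with genes on both sides of 0. All 8 tested heat-shock genes lie below 0, with Hspa1a at the far left. Hspa1a had 0 reads in the knockout-labelled group, so its fitted value depends on the pseudocount.

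Markers of other cells also moved between the groups, and their part in the results above was not tested. Their counts stand beside 26.8% of all genes called, 11.8% as higher and 15.0% as lower. Of the tested markers, 6 of 7 dendritic cell genes and 6 of 6 B cell genes were lower, as were 6 of 8 basophil, mast cell and eosinophil genes with 1 higher, and 2 of 8 neutrophil genes were higher. The summed dendritic cell level was 7834 to 20310 in control and 2019 to 4373 in knockout-labelled libraries, and that of B cell markers 2083 to 2474 and 1006 to 1312. Neutrophil markers summed to 140000 to 190400 and 112500 to 313000. Of T and NK cell markers 1 was higher and 2 were lower of 3 tested, of erythroid markers 2 were higher of 6, of megakaryocyte markers 2 were lower of 6, of stem cell markers 2 were lower of 8, and of stromal and endothelial markers 2 were lower of 3. At 0 reads in all knockout-labelled libraries were Pax5 and Vpreb3 of the B cell, Procr of the stem cell, and Emcn of the endothelial markers, while Cdh5 had 0 reads in all 6 libraries.

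The mean centred log2 profile of the 9 tested members averages genes that differed in both directions, and ran from -0.17 in knockout replicate 1 to 0.13 in knockout replicate 2. By root mean square difference over the 6 libraries, the 4 genes nearest to it among 11271 with a mean of at least 50 were Eefsec (0.0296), Sdhc (0.0396), Kctd20 (0.0422) and Prpf31 (0.0431). None of these 4 passed the limma test (adjusted p from 0.493 to 0.91), with log2 fold changes from -0.02 to 0.11, though Prpf31 passed after the GC and length correction (0.25, adjusted p = 0.0466).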

How the data were processed

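RNA-seq of sorted GMPs gave 1 deposited table. Per the labels' protocols, a SMARTer kit for low RNA input was followed by an Ion Total RNA-Seq kit with PCR, and no molecular identifiers are mentioned, so the floor of 3 reads covers counting error only. Per the submitters' processing notes, the tools were HTSeq, STAR, BWA 0.7.5a, DESeq2 and Picard, with no roles given, on mm9 (NCBIM37); no source used here gives strand use. The deposited signal is gene counts that the authors divided by 1 size factor per library: 99.99 to 100% of values above 0 were whole multiples of a library's smallest step, within 0.01 of a read. Dividing by that step (0.8885 to 1.1419) recovered the reads. The 5 rows that name no gene, 74.8 to 77.1% of all reads listed, were left out of sums and tests.

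The main test was limma 3.58.1 in R 4.3.3, 2-sided, for the group term on log2(deposited value + 1), with eBayes moderation that follows a trend in the mean, among genes averaging 10 or more, Benjamini-Hochberg adjusted over all genes tested. Folds are on that log2 scale, which understates changes of low genes. edgeR 4.0.16 (quasi-likelihood) on the recovered reads called 1687 genes higher and 2077 lower of 14458, and 3663 of these calls matched limma's with the same sign; DESeq2 1.42.0 was the other count test. The limma step was tested on simulated data. Replicates differed beyond counting noise (chi-square per gene from 13.9), so each library counted once. Symbols, exon lengths and GC content came from GENCODE M21 (GRCm38), another build than the authors', with a symbol for 32897 of 37620 IDs and GC content for 95.9% of the genes tested.

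The members, gene lists and tests were chosen with earlier results of these data known. The genes named were the members, Bap1, a fixed set of relatives, up to 6 called genes of each related list by lowest adjusted p, and the 5 genes nearest to the members' mean profile; 3 genes that this rule names are not reported here. Alternatives changed the tool, normalization, pseudocount, filter, GC and length, sex term and replicate block, or left out 1 library.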

Additional observations from a re-analysis of the deposited data

How the results depend on the processing

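Over the 9 tested members and up to 17 alternatives each, 135 of 149 estimates kept their direction and their side of the threshold, 9 (all of Jun) no longer passed, 4 passed only there (Fos in 2, Junb and Egr1) and 1 changed sign. The count of members called lower was 1 in place of 2 with edgeR, with DESeq2, after quantile normalization and without a filter beyond 1 read. With the GC and length correction, 2 members were called higher in place of 1, and 3 were called lower in place of 2. That correction called 2615 genes in all higher, and 18 genes of the related lists in place of 10. Of all calls, 42% were lower in place of 56.1%. Leaving out 1 library gave 1 to 2 members higher, 1 to 2 lower, 1058 to 1796 of all genes higher, 1413 to 2354 lower, 5 to 11 genes of the related lists higher and 11 to 15 lower; the lowest counts over all genes came without control replicate 2 (1058 and 1422) and 3 (1105 and 1413). The cause of these shifts was not tested, except that leaving out a library leaves fewer samples.

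Genes that did not pass and changed sign after the GC and length correction were Jund (-0.09), Btg1 (0.03), Creb1 (0.22), Srf (-0.33), Nab2 (-0.15), Tob1 (0.2), Zfp36l1 (0.06), Eefsec (-0.07) and Kctd20 (0.09). Tob1 was at 0.01 in edgeR, 0 in DESeq2 and 0.1 after quantile normalization, Zfp36l1 at 0.02 after quantile normalization, and Mapk3 at 0.03 in both edgeR and DESeq2. Leaving out 1 library moved Eefsec between -0.02 and 0.11, Elk1 between -0.02 and 0.4, Kctd20 between -0.07 and 0.08, Mapk3 between -0.32 and 0.2, Myc between -0.07 and 0.3, Nab2 between -0.66 and 0.97, Sdhc between -0.01 and 0.16, Srf between -0.03 and 0.21, Tob1 between -0.39 and 0.24 and Zfp36l1 between -0.43 and 0.26.

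Replicate numbers are shared by the labels of both groups but name no common animal or batch. Deviations of same-numbered libraries from their group means correlated at -0.104, 0.042 and -0.058 across genes, and not every library correlated best with its own number. With the replicate number as a block, 1550 genes were higher and 2014 lower, 1 member was higher and 2 were lower, and of the related lists 10 genes were higher and 16 lower; Elk3 passed and Klf10 (adjusted p = 0.0507) did not. The bound of Hspa1a without control replicate 2 was added after seeing the data. Depth limits Fosb, Egr1 and Jund most, with at most 36 reads in any library.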
